A study of Mus musculus with 8 samples.

Results

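The 9 Pax genes of the mouse, Pax1 to Pax9, were taken by symbol from the 21900 protein-coding genes of the RefSeq annotation of GRCm38.p6, the assembly behind mm10, and every deposited CUT&RUN peak in each gene or within 2 kb of it was collected. CUT&RUN uses an antibody to bring micrococcal nuclease to a protein on chromatin, and the DNA fragments it releases are sequenced. The cells were mouse embryonic stem cells of the C57BL/6 strain, grown with LIF, CHIR99021 (a GSK3 inhibitor) and PD0325901 (a MEK inhibitor). A rabbit anti-METTL14 antibody was used on Mettl3 Control cells and on Mettl3 CKO cells, and a rabbit anti-METTL3 antibody on Mettl14 Control cells and on Mettl14 CKO cells, each of these 4 groups having 2 libraries. Antibody and line thus changed together, and METTL14 and METTL3 lists are not compared as groups. The labels do not expand CKO, name a Cre driver or say how the lines were derived, and a library's replicate number is the only sign of a separate sample, so p-values measure the spread between libraries, which may be technical. The lists hold peak positions and no RNA measure, so neither the loss of the targeted gene nor the stem cell identity could be checked from them. The annotation used here gives gene boundaries and starts but no exons, so exonic and intronic peaks were not told apart. METTL14 lists held 1439 to 3922 peaks and METTL3 lists 242 to 353, and the read depth behind them is unknown.

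Pax proteins are transcription factors that bind DNA through a paired domain. They specify tissues in the embryo and are usually placed in 4 subfamilies: Pax1 with Pax9, Pax2 with Pax5 and Pax8, Pax3 with Pax7, and Pax4 with Pax6. In embryonic stem cells most Pax genes are known as developmental genes held silent, many of them by Polycomb complexes. METTL3 and METTL14 form the enzyme that places N6-methyladenosine (m6A) on RNA, in which METTL3 carries the catalytic site.

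Promoter windows, each 250 bases before to 50 bases after a RefSeq start, are shown for 3 genes where METTL14 peaks reached such a window, with Pax8, which had no peak, for contrast. Sequences are from RefSeq (GRCm38.p6), 5′ to 3′ on the gene's own strand, and capitals mark bases inside a METTL14 peak of any library. The Pax2 window belongs to the third of its 3 starts and lies at chr19:44756656-44756955 on the plus strand. The Pax9 window lies at chr12:56695221-56695520 (plus), the Pax7 window at chr4:139832919-139833218 (minus) and the Pax8 window at chr2:24475550-24475849 (minus).
Pax2: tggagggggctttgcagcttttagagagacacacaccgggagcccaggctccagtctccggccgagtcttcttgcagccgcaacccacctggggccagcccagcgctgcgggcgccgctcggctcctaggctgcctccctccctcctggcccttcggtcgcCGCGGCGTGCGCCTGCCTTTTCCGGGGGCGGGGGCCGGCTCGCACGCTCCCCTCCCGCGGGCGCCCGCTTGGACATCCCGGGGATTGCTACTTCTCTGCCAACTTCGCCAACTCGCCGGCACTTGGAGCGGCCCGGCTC
Pax9: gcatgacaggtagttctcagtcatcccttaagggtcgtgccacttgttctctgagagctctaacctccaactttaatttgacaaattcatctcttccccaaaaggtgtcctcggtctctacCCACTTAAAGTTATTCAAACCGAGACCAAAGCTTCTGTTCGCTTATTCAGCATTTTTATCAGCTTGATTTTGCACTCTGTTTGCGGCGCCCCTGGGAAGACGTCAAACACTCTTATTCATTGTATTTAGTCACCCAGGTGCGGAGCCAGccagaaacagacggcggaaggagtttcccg
Pax7: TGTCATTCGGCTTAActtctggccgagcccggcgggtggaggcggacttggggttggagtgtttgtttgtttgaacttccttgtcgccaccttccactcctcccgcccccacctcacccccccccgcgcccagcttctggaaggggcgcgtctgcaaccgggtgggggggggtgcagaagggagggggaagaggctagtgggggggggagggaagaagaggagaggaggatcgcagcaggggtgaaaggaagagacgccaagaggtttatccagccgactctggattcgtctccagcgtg
Pax8: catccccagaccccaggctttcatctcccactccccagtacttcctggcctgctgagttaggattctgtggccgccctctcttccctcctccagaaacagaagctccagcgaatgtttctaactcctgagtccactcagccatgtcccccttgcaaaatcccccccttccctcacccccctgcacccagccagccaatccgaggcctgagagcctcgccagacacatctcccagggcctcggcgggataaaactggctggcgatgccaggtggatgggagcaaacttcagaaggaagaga
In the Pax2 window 139 of the 300 bases lay in a peak, and 3 libraries contributed, both controls and CKO replicate 1. In the Pax9 window 149 bases were covered, by 1 peak of control replicate 2. In the Pax7 window only the 15 bases farthest upstream were covered, by the edges of a peak in control replicate 1 and in CKO replicate 2.

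METTL14 peaks were found at 7 of the 9 Pax genes in at least 1 library, and at Pax2, Pax6, Pax7 and Pax9 in all 4. Over all protein-coding genes, 20.8% had a METTL14 peak in at least 1 library by the same window and 2.53% in all 4. Pax4, which acts in pancreatic endocrine cells, and Pax8, a regulator of thyroid and kidney, had no peak in any library. The Pax genes are long, with a median of 55049 bp against 17146 bp for all protein-coding genes, and a longer gene offers more room for a peak. The part of length in these shares was not tested. Summed over the 4 libraries, Pax7 carried 17 peaks, Pax2 15, Pax6 12, Pax9 10, Pax3 5, and Pax1 and Pax5 3 each. Only 13 protein-coding genes, Pax7 included, had at least 17, and 50 had at least the 10 of Pax9.

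**Figure D1:**
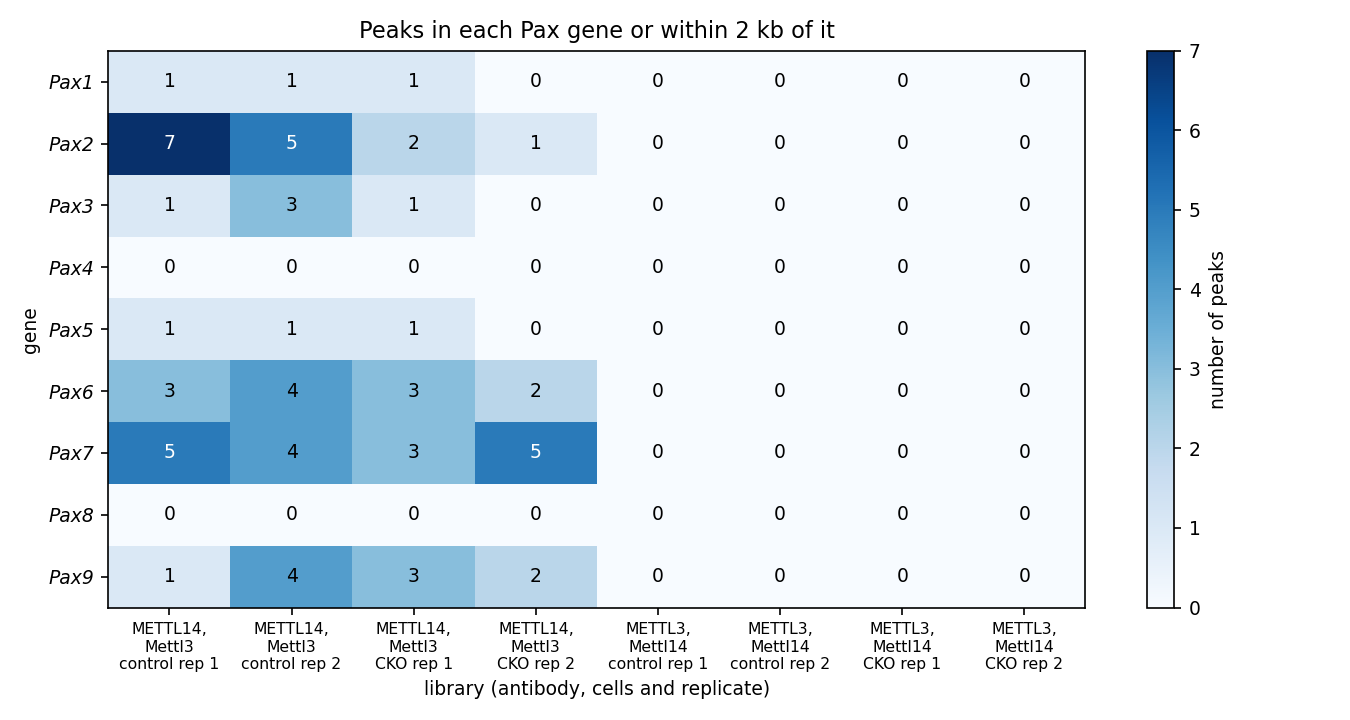
Number of peaks (colour and printed value) in each Pax gene or within 2 kb of it, with genes in rows and the 8 libraries in columns. Pax2, Pax6, Pax7 and Pax9 have peaks in all 4 METTL14 libraries, Pax4 and Pax8 have none, and all METTL3 entries are 0.

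A replicated region was a stretch where peaks of both libraries of a group overlapped by at least 1 bp. In Mettl3 control cells 6 of the 9 genes (66.7%) had one, namely Pax1, Pax2, Pax3, Pax6, Pax7 and Pax9, against 3.82% of all protein-coding genes. In Mettl3 CKO cells 3 of the 9 (33.3%) did, namely Pax6, Pax7 and Pax9, against 3.15% of all. Control libraries called 7 genes each. CKO replicate 1 also called 7, but CKO replicate 2, the shortest METTL14 list, called 4. Over all protein-coding genes, 9.71% and 11.2% had a peak in control replicates 1 and 2. In CKO replicates 1 and 2 these shares were 12.9% and 4.91%. Peaks in both CKO libraries were found at 4 genes, and 1 of these, Pax2, had no replicated CKO region because its CKO peaks did not overlap. With all METTL14 lists shortened to 1439 peaks, 5 genes had a replicated control region and 3 a replicated CKO region. The shares of all protein-coding genes at that length are not given here.

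Pax2 and its relatives Pax5 and Pax8 form the subfamily that patterns the midbrain-hindbrain boundary, the kidney and the ear, with Pax5 also needed for B cell identity. Pax2 (chr19:44746601-44838269) had 7 and 5 peaks in control replicates 1 and 2, and 2 and 1 in CKO replicates 1 and 2. Both CKO libraries were below both controls. Control libraries averaged 6 ± 1.41 and CKO libraries 1.5 ± 0.707 (SD, n = 2 each), a difference of -4.5 peaks (two-sided exact permutation p = 0.333, the smallest that 4 libraries allow; adjusted p = 1 over all protein-coding genes). The same order, both CKO libraries below both controls, was seen at 1.03% of protein-coding genes and the reverse order at 0.521%. Among the 9 Pax genes Pax2 alone had non-overlapping groups when peaks were counted as listed. With peaks closer than 500 bp merged, the difference at Pax2 was -2.5, and the groups also did not overlap at Pax6 (-1.5) and, with CKO above control, at Pax9 (1.5). With peaks near starts only, they did not overlap at Pax6 either (-1). At Pax2 the difference was -4 with all METTL14 lists shortened to 1439 peaks, and -1.22 when expressed per 1000 peaks of each list. The shortening could take out few peaks, as most Pax2 peaks stood early in the lists. Per 1000 peaks the groups also did not overlap at Pax1, Pax3 and Pax5, with CKO below control. The shares of all protein-coding genes above hold for peaks as listed. Shares under these other rules are not given here, so these genes cannot be set against a background.

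The Pax2 peaks gathered at the second and the third annotated starts (44755752 and 44756906). The 3 replicated control regions were at chr19:44756817-44757004, whose centre was 4 bp from the third start, at chr19:44757370-44757621, 590 bp downstream of it, and at chr19:44759631-44759811, 2815 bp downstream. The first of these was also touched by CKO replicate 1 and the last by CKO replicate 2, so the CKO libraries did not overlap each other there. The region at chr19:44757370-44757621 had no CKO peak. Peaks between chr19:44755716 and 44757621 chained into 1 cluster of 8 peaks when gaps of up to 500 bp were bridged, and 7 of the 8 came from control libraries. At chr19:44751048-44751293, between the first and the second start, control replicate 1 and CKO replicate 1 shared a region. Control replicate 1 also had a solitary peak at chr19:44791757-44791905, 34925 bp from the third start.

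Pax5 (chr4:44524748-44710694, minus strand) had 1 peak in each control library, 1 in CKO replicate 1 and 0 in CKO replicate 2. These peaks lay 5990 to 6349 bp downstream of the start, within a stretch of 508 bp (chr4:44704271-44704778). The control peaks did not overlap each other, so Pax5 had no replicated control region, while the peaks of control replicate 1 and CKO replicate 1 did overlap. The lncRNA gene 5730488B01Rik is annotated at the same place (44702800 to 44705110), and peaks cannot be assigned to one or the other. Just beyond the 2 kb limit, 2106 bp outside the gene on the upstream side, began a cluster at chr4:44712800-44714128 with 6 peaks from all 4 METTL14 libraries. With a window of 5 kb Pax5 joined the genes with a replicated CKO region, which then numbered 4. The share of all protein-coding genes with that window is not given here.

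Pax7 and Pax3 mark the dorsal neural tube, neural crest and muscle precursors. Pax7 (chr4:139737059-139833530, minus strand) had 5 and 4 peaks in control replicates 1 and 2, and 3 and 5 in CKO replicates 1 and 2. The groups overlapped, with means of 4.5 ± 0.707 and 4 ± 1.41 (SD, n = 2 each; exact permutation p = 1). CKO replicate 2, the shortest list, held as many Pax7 peaks as the highest control. The start (139832968) lay in a cluster of 11 peaks from all 4 libraries at chr4:139831434-139833354. Inside it, chr4:139832579-139832746 was shared by both controls and CKO replicate 1, with its centre 306 bp downstream of the start. A stretch at chr4:139831625-139831807, 1252 bp downstream, was shared by both CKO libraries and control replicate 1, and the control replicate 2 peak closest to it (139831434 to 139831582) ended short of it. Farther inside the gene, 8958 bp from the start, all 4 libraries had a peak within chr4:139823736-139824283. There both controls overlapped, and the CKO peaks lay on either side. Another place, chr4:139821681-139821832, was called in control replicate 1 and CKO replicate 2. The lncRNA gene Gm46873 (139833178 to 139852920) overlaps the annotated Pax7 gene, and the 11 peaks of the cluster at the Pax7 start lay in it or within 2 kb of it.

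Pax3 (chr1:78101267-78197136) had 1 and 3 peaks in the controls, 1 in CKO replicate 1 and 0 in CKO replicate 2 (means 2 ± 1.41 and 0.5 ± 0.707, SD, n = 2 each; exact permutation p = 0.667). One region, chr1:78189499-78189746, was shared by both controls and CKO replicate 1. The other peaks, at chr1:78196439-78196587 and chr1:78196940-78197088, came from control replicate 2 and lay 623 and 122 bp inside the gene boundary with the higher coordinate.

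Pax6, the regulator of eye, forebrain and pancreatic islet development, differed from Pax2 and Pax7 in where its peaks lay. The controls had 3 and 4 peaks in the gene (chr2:105668896-105698410) or beside it and the CKO libraries 3 and 2, and the groups overlapped (means 3.5 ± 0.707 and 2.5 ± 0.707, SD, n = 2 each; exact permutation p = 0.667). Only 2 of its 12 peaks were within 2 kb of an annotated start. The replicated control region, chr2:105675388-105675544, lay 6570 bp downstream of the first start and was also called in CKO replicate 1. A region at chr2:105677671-105677881, between the starts (-4687 bp from the second), was called in both CKO libraries and in control replicate 2. The peak at chr2:105667519-105667667, in control replicate 2, was the only peak outside the body of its Pax gene, 1229 bp before the first Pax6 start, and it lay within the antisense-named lncRNA gene Pax6os1 (105536080 to 105670330). Pax4 (chr6:28442334-28449340), the shortest of the 9 genes at 7007 bp, had no METTL14 peak within 100 kb.

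Pax9 and Pax1 act in the sclerotome, from which vertebrae form, and in the pharyngeal pouches and thymus. Pax9 (chr12:56691693-56712824) had 1 and 4 peaks in control replicates 1 and 2 and, in CKO replicates 1 and 2, 3 and 2, with the same mean of 2.5 in both groups (SD 2.12 and 0.707, n = 2 each; exact permutation p = 1). This equality rested on how peaks were counted: with peaks closer than 500 bp merged, both CKO libraries were above both controls (1.5 by the mean, with an exact permutation p of 0.333, the smallest that 4 libraries allow). The share of all protein-coding genes with that order on merged peaks is not given here. As each library was left out the difference in listed peaks ran from -1.5 to 1.5. Pax9 held the one region at a Pax gene that was called in all 4 METTL14 libraries, chr12:56695667-56695887, centred 306 bp downstream of the start at 56695471. In CKO replicate 2 this was the Pax peak nearest the top of the list, at position 167 of 1439. Both CKO libraries also had a peak 4487 to 4716 bp downstream (chr12:56699884-56700261) where the controls had none, but these peaks did not overlap each other. Pax1 (chr2:147361930-147375049) had 1 peak in each control, 1 in CKO replicate 1 and 0 in CKO replicate 2. The control peaks formed the region chr2:147362218-147362369, at -2700 bp from the RefSeq start used here and inside the lncRNA gene AI646519 (147361541 to 147362793). They lay within the annotated Pax1 gene (plus strand), centred 362 and 365 bp inside its boundary with the lower coordinate. The CKO peak was elsewhere, 3281 bp downstream of the RefSeq start.

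**Figure D2:**
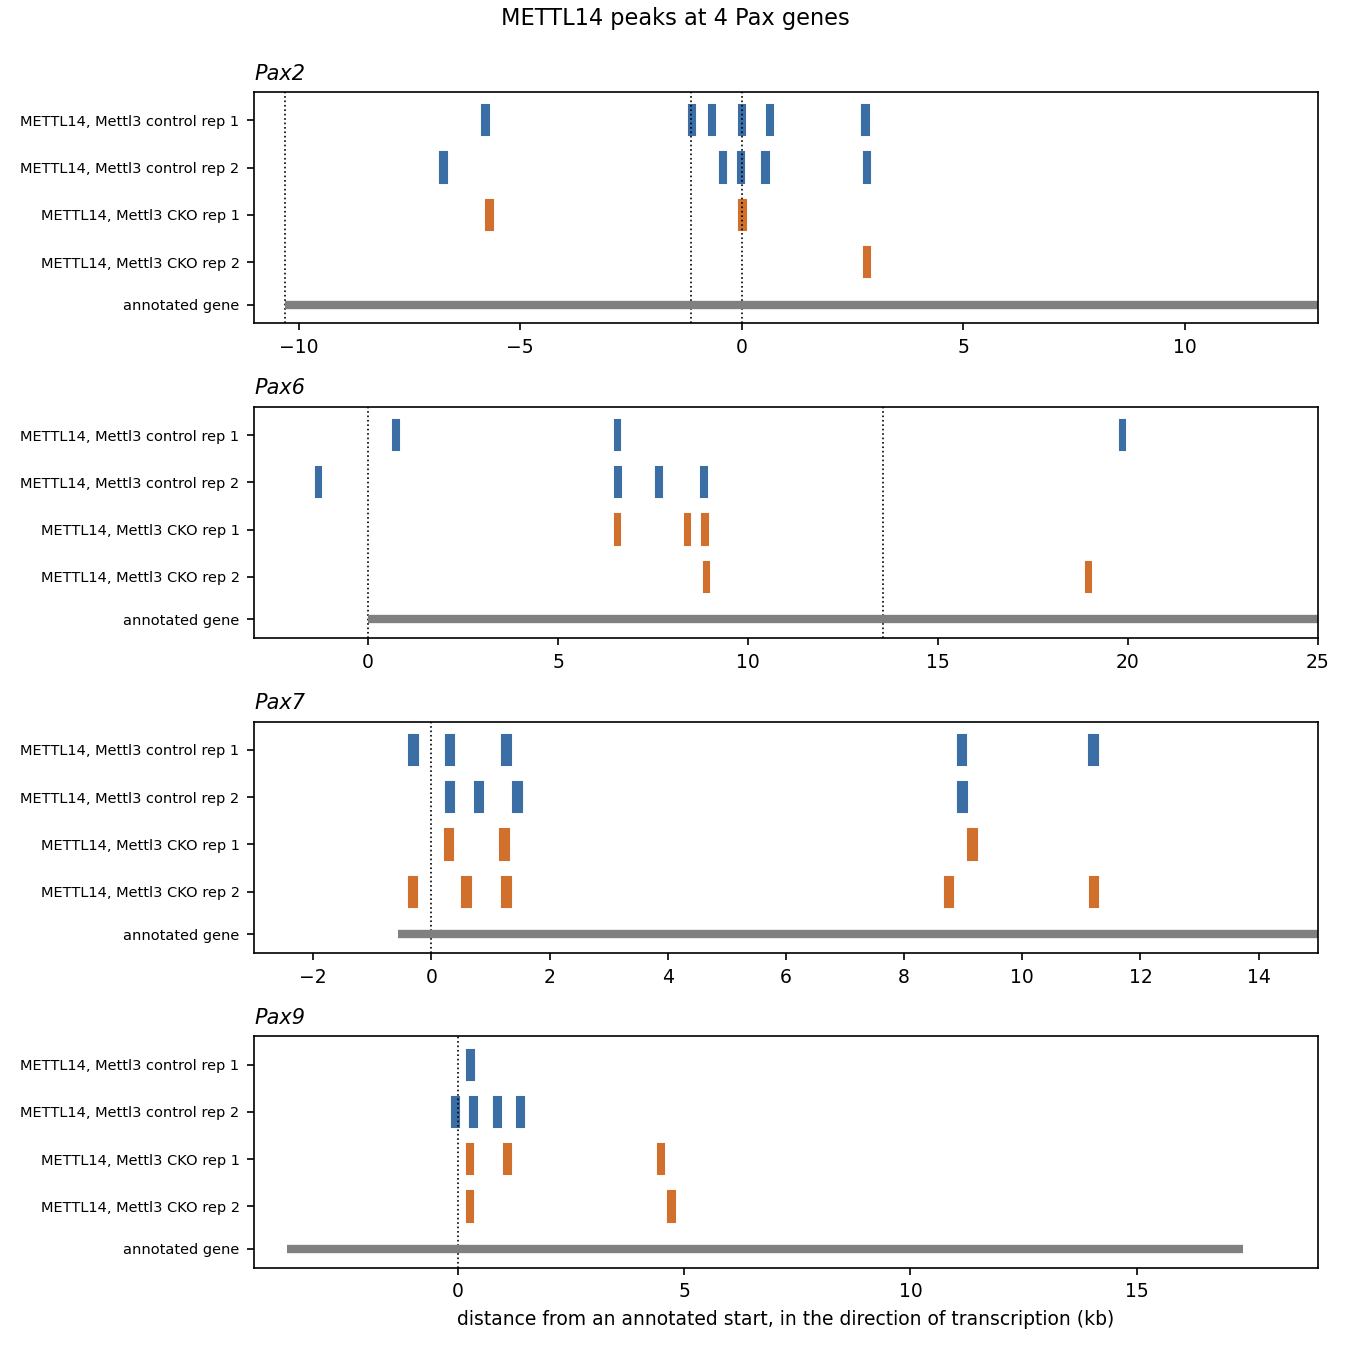
METTL14 peaks (blue, Mettl3 control; orange, Mettl3 CKO; 1 row per library) at Pax2, Pax6, Pax7 and Pax9, by distance in kb from an annotated start along the direction of transcription. Dotted lines are the annotated starts and the grey bar is the gene, drawn only within the plotted range, which leaves out the Pax2 peak at 34925 bp; peaks recur at the third start of Pax2 and just downstream of the Pax7 and Pax9 starts, and between the starts of Pax6.

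As the plot of peak positions shows, peaks lay at and downstream of starts at Pax2, Pax7 and Pax9 and farther away at Pax6. Starts were available for 7 of the 9 genes, all but Pax3 and Pax4. Of 60 peaks at these genes 29 (48.3%) were centred within 2 kb of a start, and 46 were downstream of the nearest start. For all METTL14 peaks in or within 2 kb of protein-coding genes with a start, 4917 of 6859 (71.7%) were within 2 kb of one. That share counts the nearest start of any protein-coding gene, whereas Pax peaks were measured only to starts of their own gene. The 2 shares are therefore not like measures, and the wider rule can only raise the share. By gene the counts were 8 of 10 at Pax9, 11 of 17 at Pax7, 8 of 15 at Pax2, 2 of 12 at Pax6 and 0 of 3 at both Pax1 and Pax5. The starts used may be incomplete. The annotated Pax1 gene begins at 147361930 but its only start is 147364994, and Pax9 begins at 56691693 with its only start at 56695471. The Pax1 control peaks, 362 and 365 bp inside that Pax1 boundary, thus did not count as near a start. These are descriptions of peaks, which are not replicates, and no test was made of the difference.

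Merged over the 4 METTL14 libraries, the Pax peaks formed 41 regions. Of these 26 (63.4%) were called in 1 library, 7 in 2, 7 in 3 and 1 in all 4. In the whole METTL14 lists 70.7% of 8091 regions were called in 1 library and 5.78% in all 4. At the Pax genes 12 regions (29.3%) were touched by both a control and a CKO library, against 24.6% in the whole lists. These 12 lay at 6 genes: Pax7 had 4, Pax2 had 3, Pax6 had 2, and Pax3, Pax5 and Pax9 had 1 each. Over all protein-coding genes 6.96% had a region touched by both conditions. A further 3 of the 41 regions (7.32%) were called in both controls and no CKO library, at Pax1, Pax2 and Pax7, against 3% of regions in the whole lists. Of the 41 regions 0 were shared by the CKO libraries alone, against 1.74% in the whole lists, and a count of 0 among so few regions is near that background. The count of 3 is small too, and its difference from the whole lists was not tested. When peaks up to 500 bp apart were joined, the 41 regions became 22 clusters, of which 3 held peaks of all 4 libraries, 2 of them at Pax7 and 1 at Pax9, and 11 held peaks of both conditions. Of these clusters 1 was called in both controls and no CKO library, and 1 in both CKO libraries and no control (4.55% each).

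Summed over the 9 genes, METTL14 peaks numbered 19 and 22 in control replicates 1 and 2 and 14 and 10 in CKO replicates 1 and 2. Both CKO libraries were below both controls, with means of 20.5 ± 2.12 and 12 ± 2.83 (SD, n = 2 each), a difference of -8.5 that was larger than the SD of either group. The sum over chosen genes was given no p-value. Peak number at 6 of the genes was lower in CKO by the mean, at 0 higher and at Pax9 equal, and over all protein-coding genes the mean was lower at 2068 and higher at 1495. At Pax1, Pax5 and Pax7 the difference was only -0.5. With CKO replicate 2 left out, 4 Pax genes were lower and 1 higher. When peaks closer than 500 bp were merged, 5 were lower and 2 higher. An exact permutation test called 0 of the 9 genes, and 0 at an unadjusted p below 0.05, which 4 libraries cannot reach.

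The lists differed in length, and the longest and the shortest were both from CKO cells. As a share of each list, Pax peaks were 6.07 and 6.20 per 1000 in the controls (95% Wilson intervals 3.89 to 9.46 and 4.10 to 9.38), 3.57 in CKO replicate 1 (2.13 to 5.98) and 6.95 in CKO replicate 2 (3.78 to 12.7). The intervals overlap and cover counting error only. CKO replicate 1, the longest list, had the lowest share and fewer Pax peaks than either control, and CKO replicate 2, the shortest, had the highest share. Most Pax peaks stood early in the lists, so the share also depends on how long each list is. On this scale the groups overlapped in the summed share, and 4 genes were lower and 3 higher in CKO by the mean. At the 4 lower genes, Pax1, Pax2, Pax3 and Pax5, both CKO libraries were below both controls. The share of all protein-coding genes with that order per 1000 peaks is not given here. With every list shortened to its first 1439 peaks, the counts were 17 and 21 in the controls and 12 and 10 in the CKO libraries, a difference of -8. CKO replicate 2, the highest by share, was then the lowest. This cut left out few Pax peaks, because they stood early in lists whose order is not explained. It therefore says little about the part of list length.

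**Figure D3:**
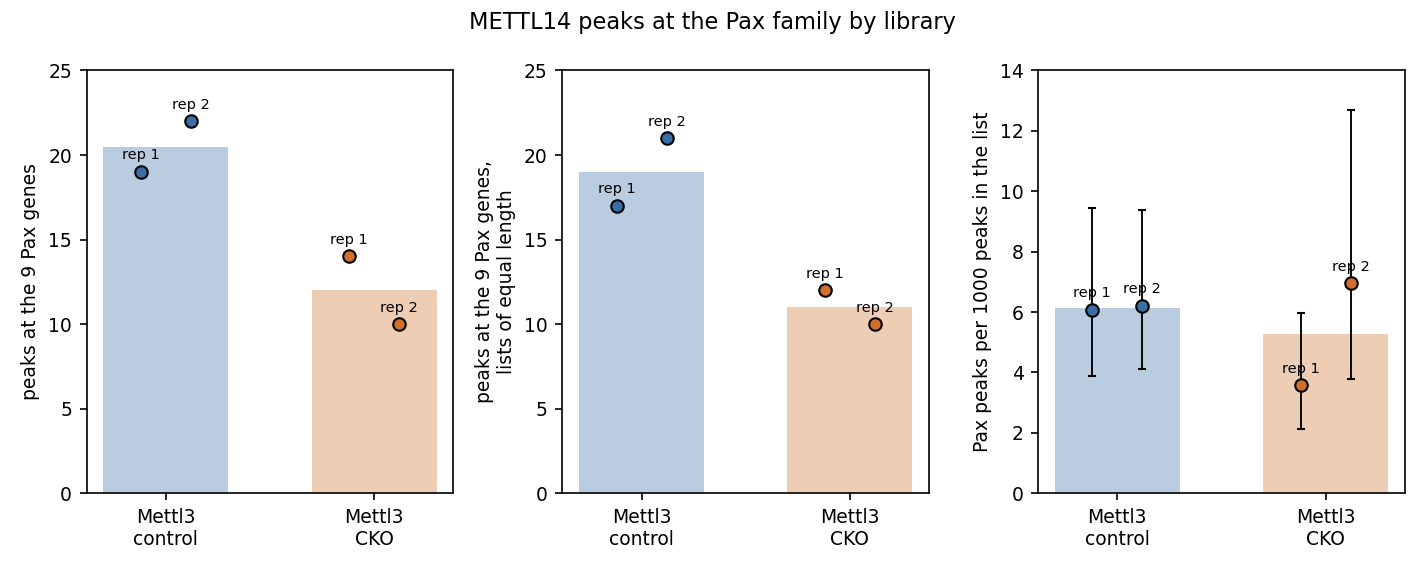
METTL14 peaks at the 9 Pax genes per library (points) and group mean (bars): the number, the number in lists shortened to 1439 peaks, and the number per 1000 peaks of the list with 95% Wilson intervals. The CKO libraries are below the controls in number (14 and 10 against 19 and 22), while in share CKO replicate 1 is lowest at 3.57 and CKO replicate 2 highest at 6.95 per 1000.

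Pax peaks stood early in the deposited lists. What orders the lists is not given in the sources used here, and the score column holds the same value in each row. Of the 65 METTL14 peaks at Pax genes, 62 were in the first 50% of their list. The median position was 16.0% and 11.1% of the list in the controls, and 10.8% and 27.9% in the CKO libraries. Counted in peaks from the top of each list, the medians were 501 and 395 in the controls and 426 and 402 in the CKO libraries. By gene the medians were 10.1% at Pax9, 10.7% at Pax7, 12.1% at Pax6 and 14.1% at Pax2. Pax1 (34.9%), Pax3 (37.1%) and Pax5 (42.4%), the genes with few peaks, stood later.

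**Figure D4:**
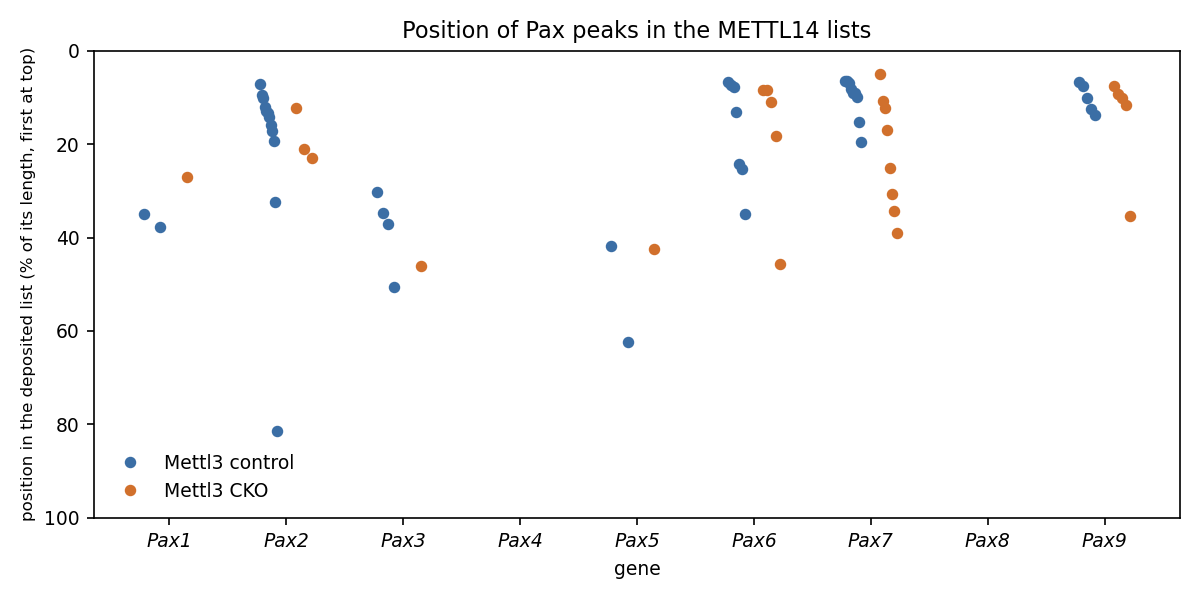
Position of each METTL14 peak at a Pax gene in its deposited list, as a percent of list length with the first peak at the top (blue, Mettl3 control; orange, Mettl3 CKO; 1 point per peak). The medians of Pax2, Pax6, Pax7 and Pax9 lie between 10.1% and 14.1%, and the latest peak is at Pax2, at 81.4%.

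No METTL3 library had a peak at any Pax gene, in Mettl14 control or Mettl14 CKO cells. Over all protein-coding genes 1.53% had a METTL3 peak in at least 1 of the 4 libraries, so 0 of 9 genes does not set the family apart. A count of 0 in these short lists allows up to 8.5 and 8.8 Pax peaks per 1000 in the controls and up to 12.4 and 8.72 in CKO replicates 1 and 2 (3 counts of each list's total). In a single METTL3 list a share like that of METTL14 could thus go unseen. Over the 4 METTL3 lists together, 0 of 1280 peaks would allow up to 2.34 per 1000 if all peaks were separate places. The same place can be listed in several of these lists, so the limit is looser than that. Antibody, line and peak width differ between the METTL3 and METTL14 lists, and no difference between them is drawn from these counts. The METTL3 peak closest to a Pax gene was 89820 bp from Pax7, in Mettl14 control replicate 1, and the next was 166166 bp from Pax2.

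RefSeq gave 10 windows for 7 members, among 32851 windows in all, whose median was 7 CpG dinucleotides per 300 bases. The third Pax2 start had 30 CpG, more than 88.3% of windows, and the second had 23. Of the other windows reached by a peak, Pax7 had 17 and Pax9 had 11. CpG number did not by itself separate touched from untouched windows: Pax5 also had 23 and no peak in its window, and both Pax6 windows (18 and 16) had none. Pax8 and the first Pax2 start had 7 each, the median of all windows, and neither was touched. The letters GGACT, the DNA form of a common m6A motif in RNA, were searched on both strands (also as AGTCC) and were present in 3 of the 10 windows, at the first Pax2 start, Pax7 and Pax8, against 45.5% of all windows.

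**Figure D5:**
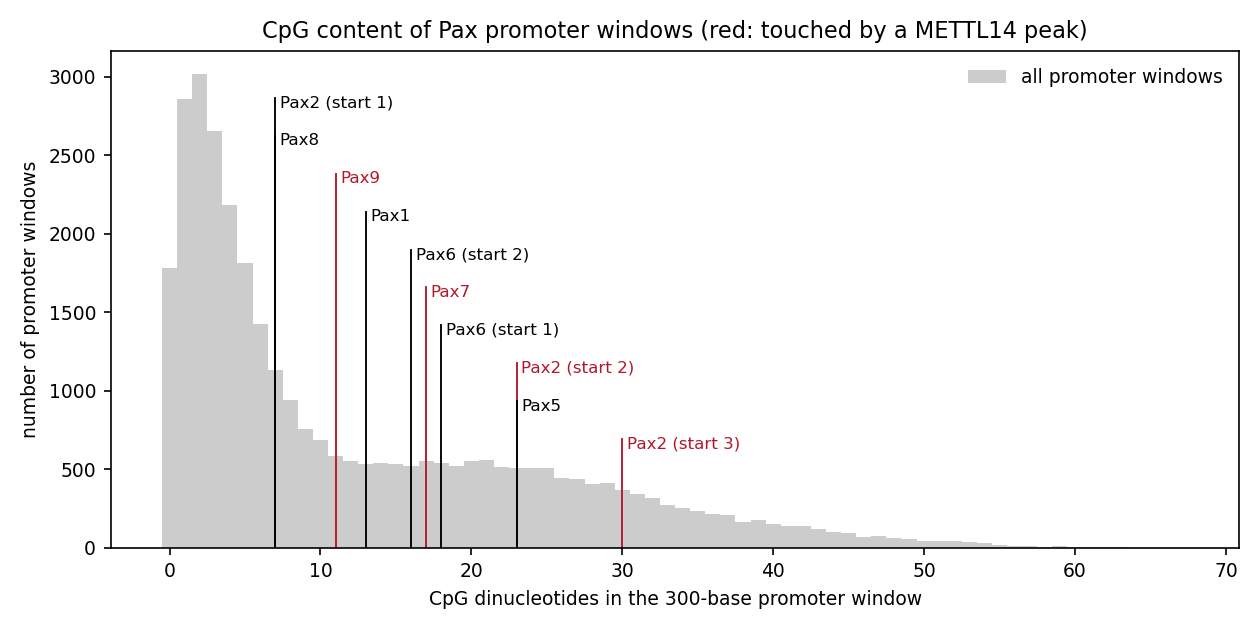
Number of promoter windows of 300 bases (y axis) by their number of CpG dinucleotides (x axis), with the 10 Pax windows as vertical lines whose heights only separate the labels. Windows touched by a METTL14 peak (red) hold 11 to 30 CpG, and untouched ones (black) 7 to 23.

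Peaks also lay in the neighbourhood of the genes. A stretch at chr19:44726498-44726711, centred at -19996 bp from the first Pax2 start, was called in all 4 METTL14 libraries and lay in no gene listed within 100 kb. Before Pax1, a cluster at chr2:147292670-147293472 was called in control replicate 2 and both CKO libraries, inside the lncRNA gene Nkx2-2os. Peak numbers of neighbour genes were counted over the whole gene with 2 kb on either side, also where it reaches beyond 100 kb. Nkx2-2os had 2 and 5 control peaks and 6 and 2 CKO peaks, of which only the 4 of this cluster lay within 100 kb of Pax1. Near Pax9, the lncRNA gene Gm26973 had 1 and 2 control peaks and 3 and 0 CKO peaks, all of them more than 100 kb from Pax9. Within 100 kb of a Pax gene, outside it, were 13 protein-coding genes, of which 5 had a METTL14 peak in at least 1 library, where 20.8% of all protein-coding genes did: Slf2, Gm2102, Snd1, Zcchc7 and Aldh4a1, with 1 or 2 peaks each. Zcchc7 had 1 peak in each CKO library and 0 in the controls, and these overlapped at chr4:44756316-44756470. Slf2, Gm2102 and Snd1 each had 1 peak, in control replicate 1, and Aldh4a1 had 1 in control replicate 2 and 1 in CKO replicate 1. The peaks of Snd1 and Aldh4a1 lay more than 100 kb from Pax4 and Pax7. Of 17 lncRNA genes there 4 had one, namely Nkx2-2os, Gm26973 and, near Pax2, Gm26644 and Gm35610. Of 6 pseudogenes 1 did, Gm14113 near Pax1, by a peak of the cluster before Pax1. The shares of all lncRNA genes and of all pseudogenes with a METTL14 peak are not given here. Among genes that overlap Pax9, the lncRNA gene Gm15524 had no peak in its body, and 7 of the peaks at the Pax9 start lay within 2 kb of it. Slc25a21 had 1 METTL14 peak, more than 100 kb from Pax9. Elp4, a neighbour that overlaps the end of Pax6, had none.

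Among 41 transcription factor genes known to act in the same tissues as Pax genes, 10 had a replicated control region, 7 a replicated CKO region and 5 both, where 3.82% and 3.15% of all protein-coding genes had a control and a CKO one. These 5 were Gbx2 and Lmx1b, of the midbrain and hindbrain, Nkx2-2 and Nkx6-1, of the ventral neural tube and pancreas, and Tfap2a, of the neural crest. Tfap2a had 4 and 5 control peaks and 7 and 5 CKO peaks, and Nkx2-2 had 2 and 4 against 6 and 2. In this list both CKO libraries were below both controls at 5 genes and above them at 2, against 1.03% and 0.521% of all protein-coding genes. No gene of this list had a METTL3 peak. The difference between the Pax genes and the list was not tested.

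For Pax7, the member with the most METTL14 peaks, the protein-coding genes with the most similar peak numbers were sought over all 8 libraries, with likeness measured as the sum of absolute differences in peak number. Otx2, a regulator of the anterior brain, differed by 1 in all, with 5, 4, 3 and 6 METTL14 peaks in control replicates 1 and 2 and CKO replicates 1 and 2. Nr2f2, a nuclear receptor of developing vessels and brain, differed by 2. Hoxd11 differed by 4, and Gm21188 and Hoxd10 by 5. A distance of 5 or less was found at 8 genes in all, and ties were taken in alphabetical order.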

How the data were processed

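The members were the 9 Pax genes, and these and the gene lists were chosen with earlier results of these data known. Per the submitters' processing notes, CASAVA, Trimmomatic 0.38, Bowtie2 2.4.1, SAMtools and HOMER were used, with no role or order, and the build was mm10. For the peak threshold, the depth and any background library, the answer is: not given in the sources used here. The authors deposited 1 peak list per library, with start and end positions and a score of 1 in each row, and the lists give no height or enrichment. Positions are given from 1. A peak was counted at a gene when it touched the gene or the 2 kb on either side, by the GRCm38.p6 RefSeq table. Strand and starts came from the RefSeq promoter table (7 of the 9 members). Peaks overlapped when they shared 1 bp. Per-gene peak numbers were compared with a two-sided exact permutation test over the 4 libraries made with an antibody, computed for all 21900 protein-coding genes with Benjamini-Hochberg adjustment. Each member was named, with genes of the partner list that had replicated regions in both METTL14 groups, neighbours within 100 kb that had a peak, and the 5 genes most like the member with the most peaks. Another gene list is not reported here. The code was tested on simulated data. Alternatives were windows of 1 kb and 5 kb, starts only, equal list length, merged peaks, peaks per 1000, other overlap rules, and leaving out each library. Python 3.11.15, pandas 2.3.3, numpy 2.4.6 and scipy 1.17.1 were used. Intervals and limits for a count of 0 cover counting error only.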

Additional observations from a re-analysis of the deposited data

How the results depend on the processing

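The sum of METTL14 peaks at the Pax genes, -8.5 in CKO against control, kept its sign under other windows, starts only, equal list length, merged peaks and shares of the list, and ran from -10.5 to -6.5 as each library was left out. It was -5.5 for peaks within 2 kb of a start only (7 genes), -4 when peaks closer than 500 bp were merged, and -0.879 per 1000 peaks. Equal list length was a weak check, as most Pax peaks stood early in the lists and few were cut. In values chosen after seeing the data, the difference per 1000 peaks was 0.811 with CKO replicate 1 left out and -2.57 when replicate 2 was left out instead, so on that scale its sign rested on 1 library. For Pax7 the difference turned to 0.5 with merged peaks and 0.757 per 1000 peaks, and ran from -1.5 to 0.5 as each library was left out. At Pax6 it turned to 0.034 per 1000 peaks. The 6 genes with a replicated control region became 3 with starts only. The 3 in CKO became 7 with peaks of either library, and 4 and 7 with 1 CKO library alone. Of all protein-coding genes, 4.91% had a peak in CKO replicate 2 alone and 12.9% in CKO replicate 1 alone. The shares of all genes under the other settings are not given here. The cause of these changes was not tested, except that either library or 1 library alone asks for less by construction. Replicate numbers mark no shared culture or day in the labels. Deviations of same-numbered METTL14 libraries had a correlation of -0.00944 over 4546 genes (METTL3: -0.0674 over 334). With the replicate block the sum was again -8.5 and 0 genes were called (exact sign-flip permutation, smallest possible p 0.5). No METTL3 value changed. Depth is unknown, and list length limits what a count of 0 shows.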
